A study of Homo sapiens with 9 samples.

Results

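The genes described here are 10 members of the BCL2 family, the proteins that decide whether the outer membrane of the mitochondrion stays closed or opens during apoptosis. They were chosen by name for their role, with earlier results of these data known. They are the survival genes BCL2L1, MCL1 and BCL2A1, the effectors BAX and BAK1, and the BH3-only genes PMAIP1, BIK, BID, BCL2L11 and BMF. All 10 were found among the 62710 gene identifiers of the count table, and 9 of them had enough counts to be tested. Their mRNA was measured by poly(A) RNA-sequencing in HT-29, an established human colorectal adenocarcinoma cell line whose genotype the labels give as WT. The 3 groups, each of 3 libraries, were non-stimulated cells, cells stimulated with flagellin and cells stimulated with ADP-heptose, both agents at 500 ng/mL, with all cells collected after 2.5 h. The study asked how ADP-heptose changes gene expression in cancer cells and set flagellin beside it as another bacterial stimulus. ADP-heptose is a sugar nucleotide of bacterial lipopolysaccharide synthesis that is sensed in the cytosol by the kinase ALPK1, and flagellin is the protein of the bacterial flagellum, sensed at the cell surface by TLR5. All groups are the same unedited cell line, so that the values below describe 1 tumor line and not the epithelium at large. The study's figure legend calls the libraries 3 independent experiments.

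In the BCL2 family, survival proteins hold the effectors BAX and BAK in check by binding them. BH3-only proteins share a short motif that fits the groove of the survival proteins: once they occupy it, or once they act on the effectors directly, BAX and BAK assemble into pores and cytochrome c leaves the mitochondrion. Survival proteins such as MCL-1 and A1 are short-lived, several genes of the family are targets of NF-κB, p53 or stress-induced factors, and mRNA levels therefore describe one layer of a balance that is also set by protein turnover, cleavage and phosphorylation. In the intestinal epithelium the family governs the loss of damaged cells, and BCL-xL, the protein of BCL2L1, and MCL-1 are among its main survival proteins in colorectal cancer cells.

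In GENCODE 29 on GRCh38 all 10 are protein-coding genes. Of the survival genes, BCL2L1 lies at chr20:31664452-31723989 (− strand), MCL1 at chr1:150574551-150579738 (−) and BCL2A1 at chr15:79960889-79971446 (−). The effectors BAX and BAK1 lie at chr19:48954815-48961798 (+) and chr6:33572547-33580293 (−). The BH3-only genes PMAIP1, BIK and BID lie at chr18:59899948-59904306 (+), chr22:43110748-43129712 (+) and chr22:17734138-17774770 (−), and BCL2L11 and BMF at chr2:111119378-111168447 (+) and chr15:40087890-40108892 (−). The deposited counts are 1 value per gene, so no value below belongs to a single exon.

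The total counts per library lay between 35040844 and 37537705 in the non-stimulated group, between 30770448 and 38304035 in the flagellin group and between 50054773 and 58272772 in the ADP-heptose group. The ADP-heptose libraries were the deepest, so that depth and stimulus cannot be told apart. ADP-heptose replicate 3 stood apart from its group: over 12144 genes the SD of the log2 difference was 0.134 between ADP-heptose replicates 1 and 2, 0.378 and 0.384 between either of them and replicate 3, and 0.165 to 0.195 within the other 2 groups. The members' differences between ADP-heptose and non-stimulated cells are therefore given with and without this replicate. Of 8 markers of intestinal epithelium, EPCAM, CDH1, KRT8, KRT18, KRT20 and VIL1 were strongly expressed, while the intestinal transcription factors CDX1 (0 counts in the non-stimulated and flagellin libraries, 4 to 12 in the ADP-heptose libraries) and CDX2 (17 to 48 counts) were almost absent. KRT20 rose with ADP-heptose against non-stimulated cells (log2 fold change 0.40, adjusted p = 0.000941) and against flagellin (0.30, adjusted p = 0.0086), and KRT8 (0.31, adjusted p = 0.158) and KRT18 (0.45, adjusted p = 0.096) lay wholly above the non-stimulated libraries without passing the threshold. The 4 blood leukocyte and 2 endothelial markers had 13 counts or fewer in every library. Of 3 fibroblast markers, COL1A2 was at 0 and PDGFRB at 6 counts or fewer. COL1A1 had 437 to 1019 counts and rose with ADP-heptose against non-stimulated cells (log2 fold change 0.41, SE 0.11, adjusted p = 0.0311 by edgeR). The part of COL1A1-expressing cells in the results below was not tested.

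The promoters of 2 members are shown because, among the members tested, PMAIP1 rose most and BMF fell most with ADP-heptose. The stretches are the bases just upstream of the first annotated exon base, from RefSeq on GRCh38.p14, written 5′ to 3′ on the strand of the gene. For PMAIP1 the stretch was chr18:59899746-59899947 on the + strand, and for BMF it was chr15:40108893-40109129 on the − strand. Capitals mark GC boxes (GGGCGG) and CRE half-sites (TGACG), the core of the site that ATF and CREB factors bind, each searched on both strands, and no 2 of the marked matches overlap.
PMAIP1: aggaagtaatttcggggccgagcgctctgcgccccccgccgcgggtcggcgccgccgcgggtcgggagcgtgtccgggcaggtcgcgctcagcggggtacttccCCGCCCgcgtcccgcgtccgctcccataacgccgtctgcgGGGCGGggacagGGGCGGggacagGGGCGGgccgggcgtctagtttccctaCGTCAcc
BMF: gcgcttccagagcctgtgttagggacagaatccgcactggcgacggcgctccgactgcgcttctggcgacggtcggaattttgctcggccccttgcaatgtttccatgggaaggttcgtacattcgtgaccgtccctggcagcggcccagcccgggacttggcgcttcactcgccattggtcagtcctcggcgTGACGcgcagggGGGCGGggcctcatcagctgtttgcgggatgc
The PMAIP1 stretch of 202 bases had a GC content of 76.2%, with 4 GC boxes and 1 CRE half-site close to the transcription start. The BMF stretch of 237 bases had a GC content of 64.6%, with 1 GC box and 1 CRE half-site. Both stretches held these 2 motifs, and a link of either motif to the changes was not tested. The RefSeq table held windows of 300 bases, 250 before and 50 after the start, for 8 of the 10 members, all but MCL1 and BIK. Below, a gene is counted if any of its windows held the motif. Each share is over single windows, so counts and shares are not in the same unit. Among these 8 genes, a GC box was found in 7 (45.0% of all 35116 windows). A CRE half-site was found in 4, BAX, BCL2L1, BMF and PMAIP1 (24.6% of all windows). The κB consensus was found for BMF alone (9.08% of all windows), and the printed stretch held no whole match to it. The AP-1 site TGANTCA was found for none (7.71% of all windows). The E-box CACGTG was found in the windows of BAX and BID (7.26% of all windows) and TATAAA in those of BCL2A1 and BCL2L1 (11.5% of all windows).

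To compare transcript levels between genes, CPM values (counts of a gene after every library is brought to the same TMM-scaled total) were divided by the length of all exons of a gene in kb. This length covers the exons of all annotated transcripts. Which transcripts the cells expressed was not tested, so comparisons between genes are approximate. In non-stimulated cells the 2 survival genes BCL2L1 and MCL1 were highest, at 86.6 ± 1.22 and 70.0 ± 0.447 CPM per kb (SD, n = 3). BAX followed at 30.8 ± 1.87 and BAK1 at 16.9 ± 0.202 CPM per kb. The BH3-only genes were lower: PMAIP1 (12.6 ± 0.681 CPM per kb) and BID (12.3 ± 0.699 CPM per kb) did not differ beyond their spread, and neither did BIK (4.08 ± 0.149 CPM per kb) and BCL2L11 (3.83 ± 0.318 CPM per kb), with BMF between these pairs at 5.43 ± 0.466 CPM per kb. After flagellin the order was the same. After ADP-heptose the order was MCL1 (117 ± 15.1 CPM per kb), BCL2L1 (105.2 ± 16.1), BAX (33.4 ± 4.66), PMAIP1 (33.3 ± 2.25), BAK1 (18.8 ± 2.5), BID (15.2 ± 1.31), BIK (8.22 ± 1.67), BMF (3.44 ± 0.334) and BCL2L11 (2.76 ± 0.388). Here MCL1 and BCL2L1 did not differ beyond their spread: MCL1 was the higher of the pair in ADP-heptose replicates 1 and 2, with 127 and 124.3 against 95.6 and 96.3 CPM per kb, and BCL2L1 was the higher in replicate 3, with 123.8 against 99.7 CPM per kb. PMAIP1 had moved up to the level of BAX.

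**Figure D1:**
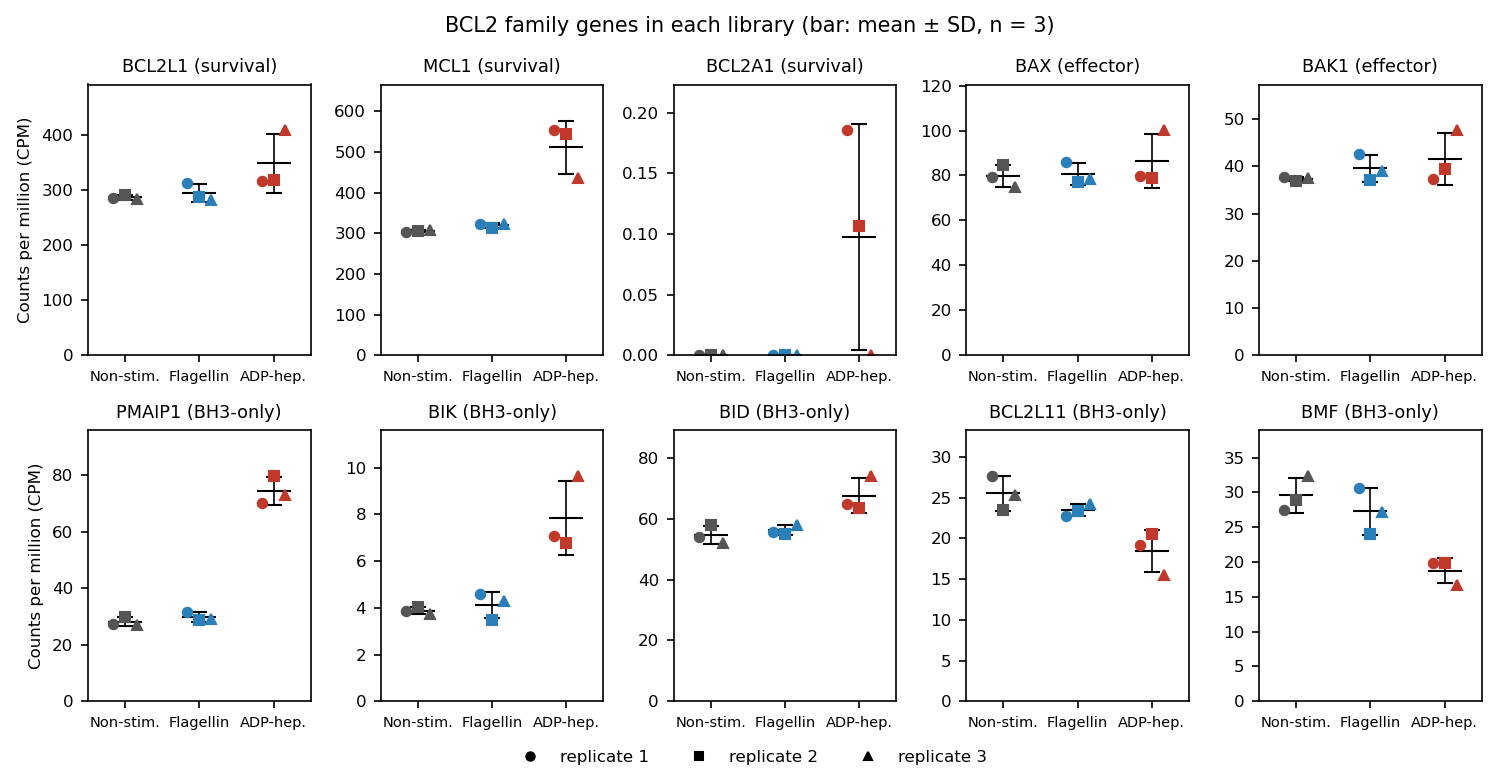
Level of each of the 10 genes in each of the 9 libraries, in CPM (vertical axes starting at 0), by group, with the mean and SD of 3 libraries as bars. PMAIP1, BIK and MCL1 sit clearly above both other groups in all 3 ADP-heptose libraries, BMF and BCL2L11 sit below, and BCL2A1 was read only in ADP-heptose replicates 1 and 2.

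With ADP-heptose, 4 of the 9 tested members were higher than in non-stimulated cells (PMAIP1, BIK, MCL1 and BID) and 2 were lower (BMF and BCL2L11), at an adjusted p under 0.05 in edgeR's quasi-likelihood test over 17412 genes. Of all genes tested, 7.48% were called higher and 4.42% lower in this comparison, 1302 and 770 genes. The median log2 fold change was 0.28 over the 9 members and 0.01 over all genes. Scaled by library totals, the split of all calls was 917 higher and 1886 lower, and the median of all genes then lay at −0.13 on the log2 scale. The 6 called members kept their direction under that scaling, with BID no longer past the threshold. Counted without any test, 5 members lay wholly above and 2 wholly below the non-stimulated libraries, where 15.4% and 14.7% of all genes did so. Without ADP-heptose replicate 3, 5 members were called higher and 2 lower, where 18.3% of all genes were called. At a change of at least 2-fold as well, PMAIP1 and BIK were the members left as higher and none was lower, where 2.89% and 0.471% of all genes were called.

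**Figure D2:**
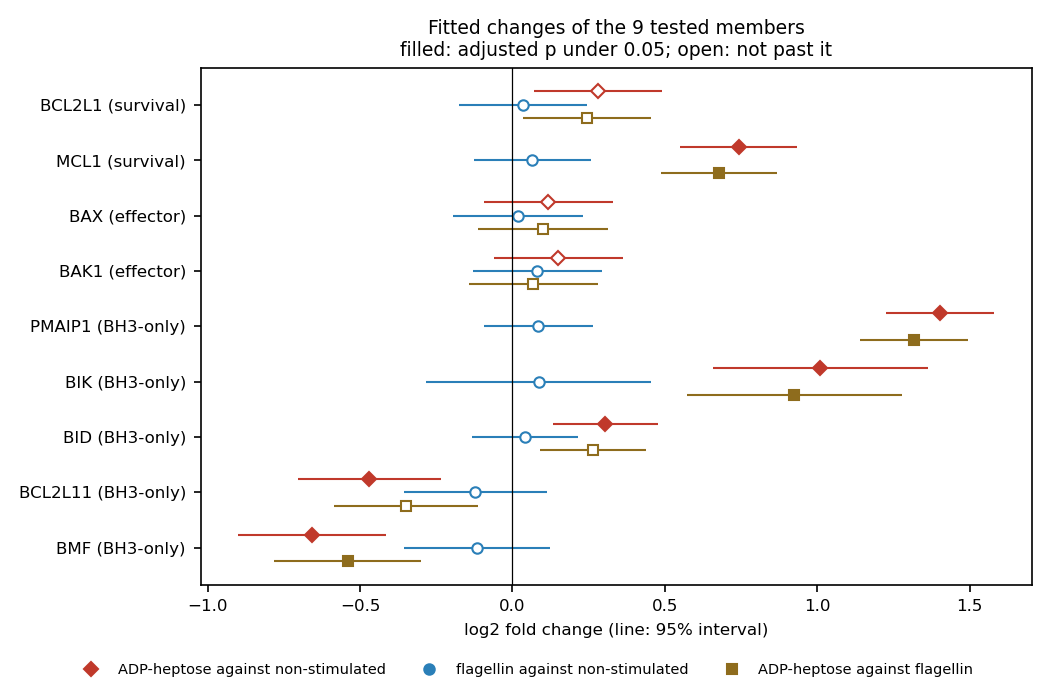
Fitted log2 fold change (horizontal axis) of the 9 tested members in the 3 comparisons, with 95% intervals as lines and filled symbols at an adjusted p under 0.05. PMAIP1 (1.40) and BIK (1.01) lie farthest to the right for ADP-heptose against non-stimulated cells and BMF (−0.66) farthest to the left, while all 9 flagellin symbols are open and lie between −0.12 and 0.09.

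Among the survival genes, MCL1 was the one called higher with ADP-heptose than without stimulation. MCL1 stood at 303.7, 306.1 and 307.5 CPM in the non-stimulated libraries and at 555.1, 543.4 and 435.6 CPM in the ADP-heptose libraries. All 3 stimulated libraries were higher, replicate 3 the least so, and the fold change was 1.67 (log2 fold change 0.74, SE 0.09, adjusted p = 9.95e-05 by edgeR). BCL2L1, which encodes BCL-xL, stood at 285.8, 291.6 and 283.9 CPM without stimulation and at 316.6, 319.0 and 410.1 CPM with ADP-heptose. Its 3 ADP-heptose libraries were also above all non-stimulated ones, but replicate 3 was far above the other 2 and the difference did not pass the threshold (log2 fold change 0.28, SE 0.10, adjusted p = 0.0867). Without replicate 3 the difference of BCL2L1 was smaller and passed it (0.15, SE 0.05, adjusted p = 0.0186). Gene counts do not separate the long from the short splice forms of BCL2L1 and MCL1, which have opposite effects on survival.

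BCL2A1, which encodes A1, a survival protein best known from blood cells and as a target of NF-κB, was near the limit of detection. It had 9, 6 and 0 counts in the ADP-heptose libraries and 0 in each of the other 6. The 15 counts among the 159059208 of the ADP-heptose group correspond to 0.0943 CPM of library totals (95% exact Poisson interval 0.0528 to 0.156, counting error only). By the same interval, 0 counts allow up to 0.0340 CPM in the non-stimulated and 0.0357 CPM in the flagellin group. BCL2A1 did not pass the filter on low counts. In a fit without that filter, its difference between ADP-heptose and non-stimulated cells had an unadjusted p of 0.0233 and an adjusted p of 0.174 by edgeR.

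The 2 effectors did not pass the threshold. BAX was read at 79.5, 84.6 and 74.9 CPM without stimulation and at 80.0, 79.1 and 100.4 CPM with ADP-heptose, and the groups overlapped. Its log2 fold change was 0.12 (SE 0.10, 95% interval −0.09 to 0.33, adjusted p = 0.476), and 0.00 without replicate 3. BAK1 was read at 37.8, 36.9 and 37.4 CPM without stimulation and at 37.3, 39.5 and 47.8 CPM with ADP-heptose, again with overlap. Its log2 fold change was 0.15 (SE 0.10, 95% interval −0.06 to 0.36, adjusted p = 0.356), and 0.04 without replicate 3. Most of what was seen for both effectors thus came from 1 library, and the intervals leave room for a rise of up to 0.33 and 0.36 on the log2 scale.

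The 5 BH3-only genes moved in both directions. PMAIP1 encodes NOXA, which binds MCL-1 and A1 and promotes the degradation of MCL-1. It was read at 27.4, 29.9 and 27.2 CPM in the non-stimulated libraries and at 70.2, 80.0 and 73.0 CPM in the ADP-heptose libraries. The ADP-heptose libraries were close to each other and far above the others, a 2.64-fold rise (log2 fold change 1.40, SE 0.08, adjusted p = 1.62e-07). BIK encodes a BH3-only protein of the endoplasmic reticulum that binds BCL-xL, and it was the least abundant tested member by CPM. It was read at 3.87, 4.04 and 3.76 CPM without stimulation and at 7.07, 6.77 and 9.67 CPM with ADP-heptose. BIK was higher in all 3, a 2.01-fold rise (log2 fold change 1.01, SE 0.16, adjusted p = 0.00119), and 0.84 (SE 0.15) without replicate 3.

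BID, whose protein is cleaved by caspase-8 and so carries the signal of death receptors to the mitochondrion, rose by less. It was read at 54.2, 58.1 and 51.9 CPM without stimulation and at 64.8, 63.8 and 74.3 CPM with ADP-heptose, with no overlap (log2 fold change 0.31, SE 0.08, adjusted p = 0.0265). This call was lost with library totals (0.17, adjusted p = 0.128), with only the 6 libraries compared (adjusted p = 0.0887) and without non-stimulated replicate 1 (adjusted p = 0.103) or 3 (adjusted p = 0.128).

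BMF and BCL2L11 were the members that fell. BMF encodes a BH3-only protein that is held at the actin motor complex and binds BCL2 and its relatives when it is released. It was read at 27.5, 28.9 and 32.4 CPM without stimulation and at 19.8, 19.8 and 16.6 CPM with ADP-heptose, all lower, which is 0.634 of the non-stimulated level (log2 fold change −0.66, SE 0.11, adjusted p = 0.00173). BCL2L11 encodes BIM, which binds all the survival proteins of the family. It was read at 27.7, 23.5 and 25.4 CPM without stimulation and at 19.2, 20.5 and 15.5 CPM with ADP-heptose, also without overlap, 0.722 of the non-stimulated level (log2 fold change −0.47, SE 0.11, adjusted p = 0.0127). The BCL2L11 call was lost with only the 6 libraries compared (adjusted p = 0.0506) and without non-stimulated replicate 1 (log2 fold change −0.41, adjusted p = 0.0746). The exons of BCL2L11 overlap 727 bases of exons of the antisense gene MIR4435-2HG, which had 283 to 561 counts (log2 fold change 0.21, SE 0.11, adjusted p = 0.267), and since strand-specific counting is not stated, reads of that overlap cannot be assigned to either gene.

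**Figure D3:**
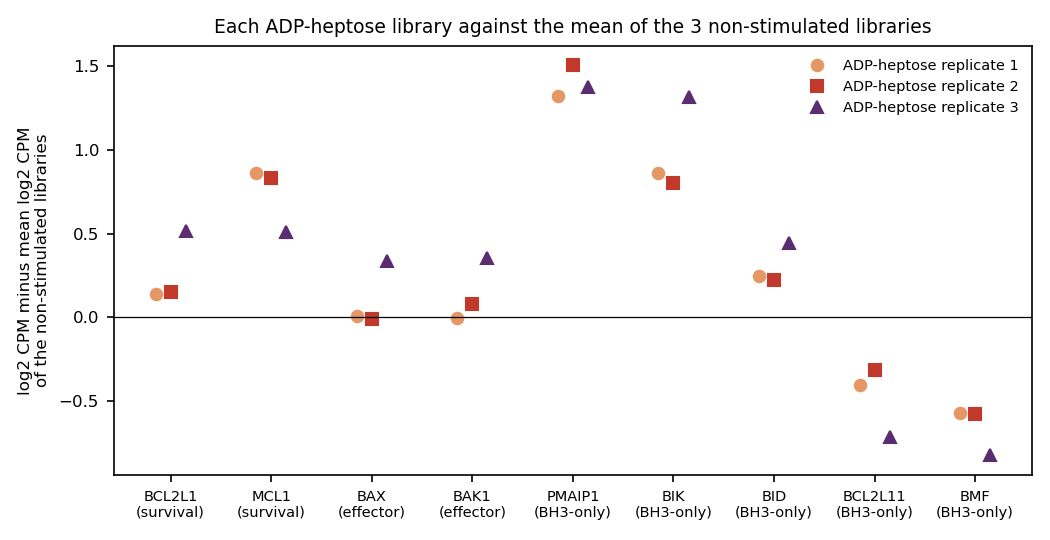
Difference of each ADP-heptose library from the mean of the 3 non-stimulated libraries, in log2 CPM (vertical axis), for the 9 tested members. Replicates 1 and 2 nearly coincide, while replicate 3 lies higher for BIK, BCL2L1, BAX, BAK1 and BID and lower for MCL1, BCL2L11 and BMF; for PMAIP1 it lies between the other 2.

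Seen by library, ADP-heptose replicates 1 and 2 differed by at most 0.19 on the log2 scale for any tested member, that of PMAIP1. Replicate 3 lay above the mean of the other 2 by 0.48 for BIK, 0.37 for BCL2L1, 0.34 for BAX, 0.32 for BAK1 and 0.21 for BID. It lay below that mean by −0.35 for BCL2L11, −0.33 for MCL1 and −0.25 for BMF, and differed by −0.04 for PMAIP1. Replicate 3 therefore had the largest rise of BIK and the largest fall of BMF and BCL2L11, but the smallest rise of MCL1. Without replicate 3, the log2 fold change against non-stimulated cells was −0.58 (SE 0.09) for BMF and −0.36 (SE 0.08) for BCL2L11. In that fit it was 0.85 (SE 0.04) for MCL1, 0.24 (SE 0.06) for BID and 1.42 (SE 0.07) for PMAIP1.

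With flagellin, none of the 9 tested members was called against non-stimulated cells, and 0.379% of all genes were called, 64 higher and 2 lower. The unadjusted p was under 0.05 for 659 genes, or 3.78%, and for no member, and DESeq2 called 106 genes but no member. The adjusted p of all 9 members was 1 and their median log2 fold change was 0.04, against 0.01 over all genes. PMAIP1 was read at 31.8, 28.7 and 29.04 CPM after flagellin and overlapped the non-stimulated libraries (log2 fold change 0.09, 95% interval −0.09 to 0.26). MCL1 was read at 322.4, 313.2 and 324.0 CPM, all above the non-stimulated libraries, but by a margin within the fitted error (0.06, 95% interval −0.13 to 0.26); 7.66% of all genes lay wholly higher in this way. BIK was read at 4.59, 3.49 and 4.28 CPM (0.09, 95% interval −0.28 to 0.45).

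The remaining members overlapped the non-stimulated group after flagellin as well. BCL2L1 was read at 313.0, 287.9 and 282.1 CPM (log2 fold change 0.04), BAX at 86.1, 77.2 and 78.6 CPM (0.02), BAK1 at 42.6, 37.0 and 39.0 CPM (0.08) and BID at 55.8, 55.0 and 58.1 CPM (0.04). BMF was read at 30.7, 23.99 and 27.1 CPM (−0.12, 95% interval −0.36 to 0.12) and BCL2L11 at 22.8, 23.4 and 24.2 CPM (−0.12, 95% interval −0.36 to 0.11). A lack of effect is not shown by these intervals, which reach up to 0.45 for BIK and down to −0.36 for BMF and BCL2L11. The signs of BCL2L1, BAX and BIK rested on flagellin replicate 1, without which their log2 fold changes were −0.02, −0.04 and −0.01.

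The direct comparison of the 2 stimuli gave the test of their difference. Against flagellin, ADP-heptose libraries were higher in PMAIP1 (log2 fold change 1.32, SE 0.08, adjusted p = 4.2e-07), BIK (0.92, SE 0.16, adjusted p = 0.00289) and MCL1 (0.68, SE 0.09, adjusted p = 0.000289) and lower in BMF (−0.54, SE 0.11, adjusted p = 0.0086). In this comparison 5.4% of all genes were called higher and 2.76% lower. At a change of at least 2-fold as well, PMAIP1 alone was left as higher and none as lower, where 2.06% and 0.287% of all genes were called. Of the other members, BID (0.26, adjusted p = 0.0668), BCL2L11 (−0.35, adjusted p = 0.0743) and BCL2L1 (0.24, adjusted p = 0.166) did not overlap between the stimuli but missed the threshold, where 27% of all genes did not overlap. BAX (0.10, 95% interval −0.11 to 0.31) and BAK1 (0.07, 95% interval −0.14 to 0.28) overlapped. Without ADP-heptose replicate 3, BID passed (0.20, adjusted p = 0.0138) and the differences of BAX and BAK1 turned to −0.01 and −0.03. The BMF call was lost without flagellin replicate 1 (−0.44, adjusted p = 0.0594), and with DESeq2 both BID and BCL2L11 were called.

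Summed by role over the members alone, the 3 survival genes and the 5 BH3-only genes were each higher in the ADP-heptose libraries than in the others. The 3 survival genes summed to 156.6 ± 1.27 CPM per kb in non-stimulated cells, 162.0 ± 5.38 with flagellin and 222.3 ± 1.42 with ADP-heptose (SD, n = 3). MCL1 made up 44.7% ± 0.390, 45.2% ± 1.35 and 52.7% ± 6.98 of that sum, with ADP-heptose replicate 3 at the level of the non-stimulated libraries. Although BCL2L1 and MCL1 each varied widely among the ADP-heptose libraries, they varied in opposite directions and their sum did not. The 5 BH3-only members summed to 38.3 ± 1.09, 38.9 ± 1.92 and 62.9 ± 2.64 CPM per kb in these groups. PMAIP1 made up 32.9% ± 0.827 of this sum in non-stimulated cells, 34.4% ± 1.03 with flagellin and 52.9% ± 2.85 with ADP-heptose. The share of BMF was 14.2% ± 1.41, 12.8% ± 0.959 and 5.48% ± 0.701, and that of BCL2L11 was 10.04% ± 1.06, 9.09% ± 0.597 and 4.41% ± 0.706. These shares hold for the 5 members only. With the BH3-only genes BBC3, BAD and HRK included, the sum was 64.6 ± 3.35, 69.4 ± 4.12 and 143.7 ± 18.1 CPM per kb. Of that wider sum PMAIP1 made up 19.5% ± 0.468, 19.2% ± 0.586 and 23.4% ± 3.32, and BBC3, which encodes PUMA, 22.8% ± 0.577, 26.2% ± 0.726 and 46.5% ± 2.31. PMAIP1 was thus the main gene with ADP-heptose among the 5 members, but BBC3 was once all 8 genes were counted. The effectors summed to 47.7 ± 1.75, 49.0 ± 3.11 and 52.2 ± 7.12 CPM per kb. These sums and shares rest on the same exon lengths, and they describe mRNA and not protein.

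**Figure D4:**
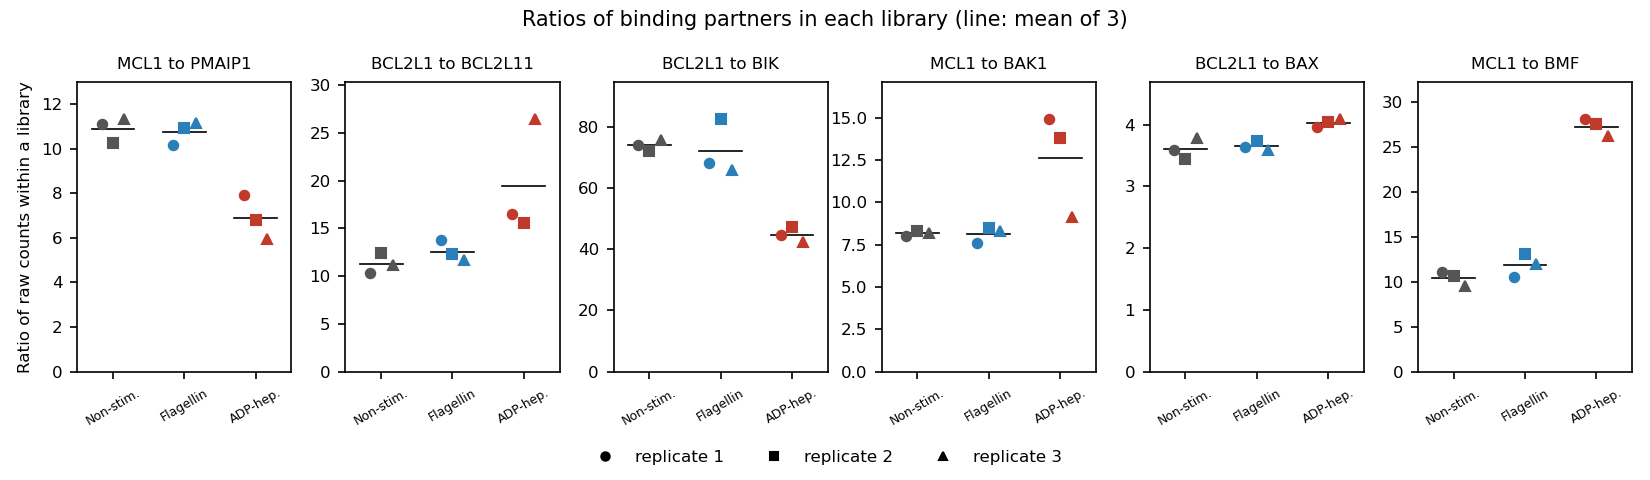
Ratio of raw counts of 2 genes whose proteins bind each other, within each library (vertical axes starting at 0, no unit), by group, with the mean of 3 libraries as a line. The ADP-heptose libraries lie below both other groups for MCL1 to PMAIP1 and BCL2L1 to BIK, above them for the other 4 pairs, and most widely apart for MCL1 to BMF.

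A ratio of 2 genes within a library does not depend on the scaling between libraries, and 6 ratios of binding partners are given as descriptions without a test. MCL1 had 11.1, 10.2 and 11.3 counts per PMAIP1 count in non-stimulated cells, 10.2, 10.9 and 11.2 after flagellin, and 7.91, 6.80 and 5.96 after ADP-heptose. Both genes rose with ADP-heptose, PMAIP1 by more, so that this ratio was lower in all 3 libraries. MCL1 to BMF went the other way, from 10.4 ± 0.803 in non-stimulated cells and 11.8 ± 1.28 after flagellin to 27.2 ± 0.953 after ADP-heptose (SD, n = 3), with little spread among the ADP-heptose libraries. BCL2L1 to BIK stood at 73.9 ± 1.68, 72.2 ± 8.94 and 44.8 ± 2.35 in the same order, the 3 ADP-heptose libraries between 42.4 and 47.1.

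For the other pairs the spread was wider or the difference smaller. BCL2L1 to BCL2L11 stood at 11.3 ± 1.05 in non-stimulated cells, 12.6 ± 1.08 with flagellin and 19.5 ± 6.02 with ADP-heptose, where replicate 3 alone reached 26.4 and the other 2 were at 16.5 and 15.6. MCL1 to BAK1 stood at 8.18 ± 0.133, 8.11 ± 0.476 and 12.6 ± 3.06, with 14.9, 13.8 and 9.12 in the ADP-heptose libraries, all above the other groups. BCL2L1 to BAX stood at 3.61 ± 0.172, 3.65 ± 0.0713 and 4.03 ± 0.0632. The ADP-heptose libraries again did not overlap with the others, and here replicate 3 (4.08) was close to replicates 1 and 2 (3.96 and 4.04), since BCL2L1 and BAX were both high in it.

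The other genes of the pathway are given by lists of known roles, also chosen with earlier results of these data known. Of 13 further BCL2 family and BH3-motif genes, 12 were tested (HRK was not), 2 were higher with ADP-heptose than in non-stimulated cells and none was lower. Of all genes 7.48% were called higher and 4.42% lower. The median log2 fold change of the list was 0.20, that of all genes 0.01. The largest change in any list was that of BBC3, which encodes PUMA, a BH3-only protein that binds all survival proteins of the family. BBC3 was read at 47.3, 49.95 and 43.0 CPM in non-stimulated cells, 62.9, 53.5 and 56.9 CPM with flagellin and 192.9, 190.9 and 255.9 CPM after ADP-heptose. With ADP-heptose it rose 4.56-fold, more than any of the 9 tested members (log2 fold change 2.19, SE 0.12, adjusted p = 8.87e-08). BCL2L12, a divergent family member, was the other (0.41, SE 0.10, adjusted p = 0.0213), a call that was lost with library totals, with only the 6 libraries compared and without non-stimulated replicate 1 or 3. BCL2 itself, the founding survival gene, had 14 to 37 counts in any library, about 0.5 to 0.7 CPM on average in each group, and was not called in any comparison.

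**Figure D5:**
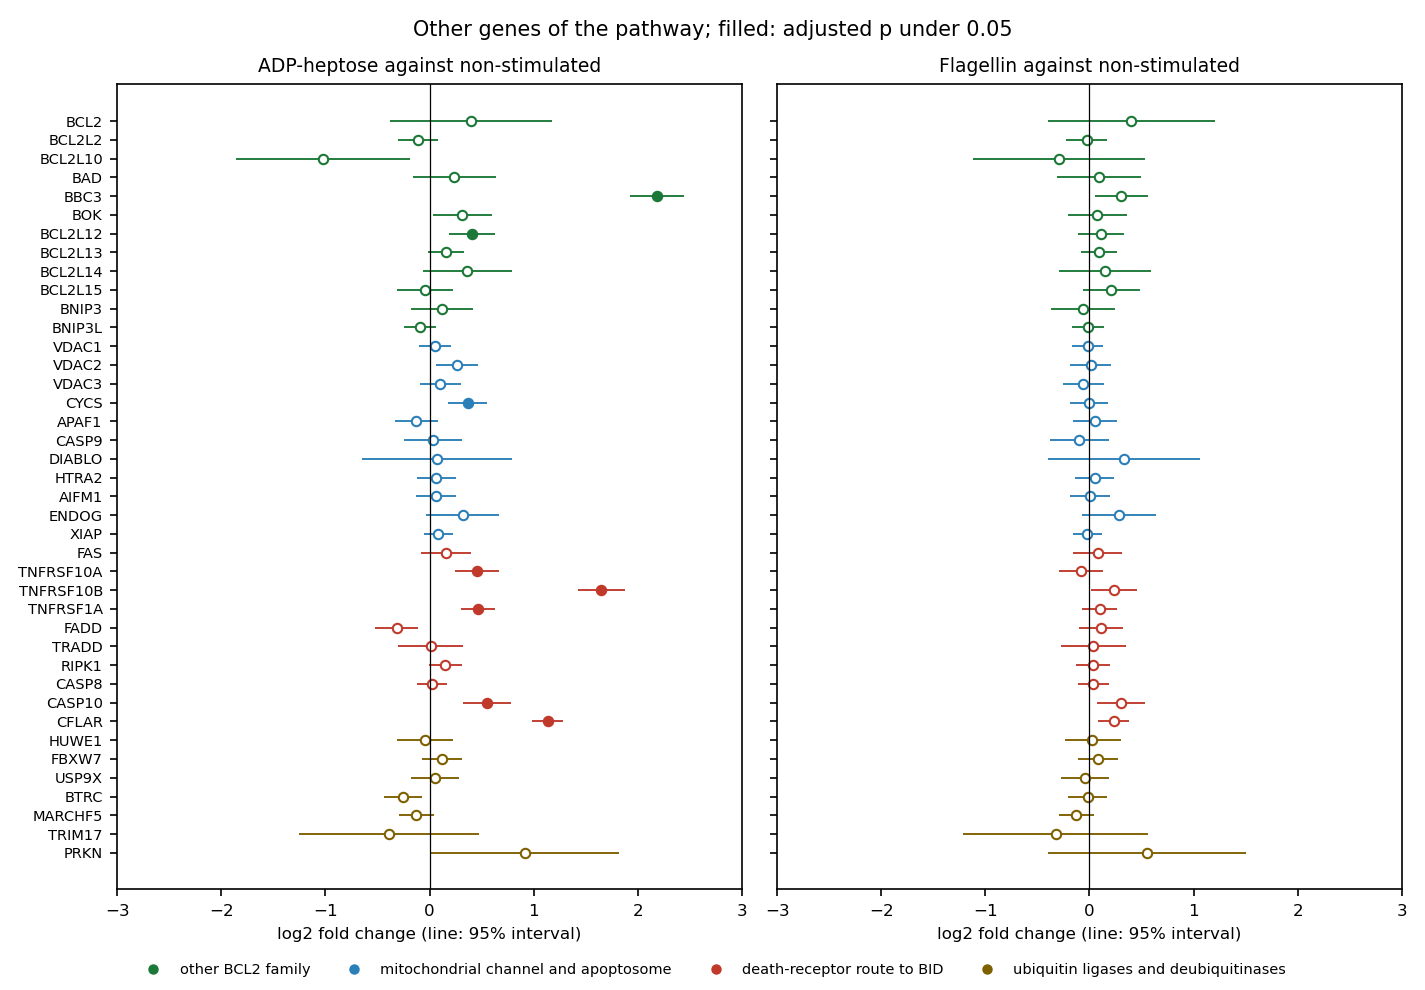
Fitted log2 fold change (horizontal axes) with 95% intervals of the 40 tested genes of the 4 pathway lists, for ADP-heptose (left) and flagellin (right) against non-stimulated cells, with filled symbols at an adjusted p under 0.05. BBC3 (2.19), TNFRSF10B (1.65) and CFLAR (1.14) lie far to the right for ADP-heptose, and every symbol for flagellin is open.

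Of 10 genes on the route from death receptors to BID, 5 were higher with ADP-heptose and none was lower (median log2 fold change 0.31), where 7.48% and 4.42% of all genes were. TNFRSF10B, which encodes the TRAIL receptor DR5, was read at 135.9, 119.4 and 131.4 CPM without stimulation and at 434.8, 445.8 and 334.1 CPM with ADP-heptose (3.14-fold, log2 fold change 1.65, SE 0.10, adjusted p = 3.41e-07). CFLAR encodes c-FLIP, which restrains caspase-8, and was read at 69.0, 63.1 and 68.0 CPM without stimulation and at 142.7, 149.8 and 147.0 CPM with ADP-heptose (2.20-fold, 1.14, SE 0.07, adjusted p = 2.56e-07). The initiator caspase gene CASP10 (0.55, adjusted p = 0.00402), the TNF receptor gene TNFRSF1A (0.47, adjusted p = 0.00122) and the other TRAIL receptor gene TNFRSF10A (0.46, adjusted p = 0.00826) rose by less, TNFRSF10A not past the threshold with library totals. FADD, the adaptor that recruits caspase-8, was lower in all 3 ADP-heptose libraries without passing the threshold (−0.32, SE 0.10, adjusted p = 0.0532), but passed it in 5 of 15 alternatives, among them DESeq2 (adjusted p = 0.0208), library totals (adjusted p = 0.00558) and the fit without ADP-heptose replicate 3 (adjusted p = 0.00199). CASP8 itself stood at 53.8 CPM without stimulation and 54.6 CPM with ADP-heptose (0.02, SE 0.07, adjusted p = 0.87).

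Among 11 genes of the mitochondrial channel and apoptosome, 1 was higher with ADP-heptose and none was lower (median log2 fold change 0.07), a share near the 7.48% of all genes called higher. It was CYCS, which encodes cytochrome c, read at 206.5, 221.7 and 213.0 CPM without stimulation and 251.9, 259.3 and 315.2 CPM with ADP-heptose (0.37, SE 0.09, adjusted p = 0.0137), and its call was lost with only the 6 libraries compared and without non-stimulated replicate 1 or 3. None of 7 ubiquitin ligases and deubiquitinases that act on BCL2 family proteins was called, with a median of −0.05. Only 2 list genes, BBC3 and TNFRSF10B, changed by more than PMAIP1 on the log2 scale.

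With flagellin no gene of these 4 lists was called, where 0.379% of all genes were, and the lists' medians lay between −0.02 and 0.09. BBC3 (log2 fold change 0.31, SE 0.12), CASP10 (0.30, SE 0.11), TNFRSF10B (0.24, SE 0.10) and CFLAR (0.23, SE 0.07) had unadjusted p of 0.0218, 0.0154, 0.0375 and 0.00575. BBC3, TNFRSF10B and CFLAR were called in the fit of only the 6 libraries compared (0.30, 0.23 and 0.23) and in the fit without ADP-heptose replicate 3 (0.30, 0.23 and 0.22), while CASP10 and the members were called in neither. Between the stimuli, 5.4% of all genes were called higher with ADP-heptose and 2.76% lower. ADP-heptose was higher than flagellin for BBC3 (1.88, SE 0.12, adjusted p = 5.05e-07), TNFRSF10B (1.41, SE 0.10, adjusted p = 1.89e-06), CFLAR (0.90, SE 0.07, adjusted p = 2.88e-06), TNFRSF10A (0.54, adjusted p = 0.00362), TNFRSF1A (0.37, adjusted p = 0.00791) and CYCS (0.37, adjusted p = 0.0161). The CYCS call was lost with only the 6 libraries compared (adjusted p = 0.0663) and without flagellin replicate 1 (0.0659) or 3 (0.0612). CASP10 did not differ beyond the threshold (0.25, SE 0.10, adjusted p = 0.187), except without ADP-heptose replicate 3 (0.30, adjusted p = 0.0384). FADD was lower with ADP-heptose than with flagellin (−0.43, SE 0.10, adjusted p = 0.0149), a call lost without ADP-heptose replicate 2 (adjusted p = 0.0537) and without flagellin replicate 2 (0.0617) or 3 (0.0711). Both stimuli were set against 1 shared group of non-stimulated libraries, so that their values stand side by side but are not independent.

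The genes whose pattern over the 9 libraries was most like that of the 2 members with the largest changes are given as a description, by Pearson correlation of log2 CPM over 12135 genes. For PMAIP1 they were PARD6B (r = 0.996), PPP1R15A (r = 0.996) and DUSP5 (r = 0.995), with log2 fold changes of 1.07, 1.93 and 2.42 for ADP-heptose against non-stimulated cells and 0.04, 0.09 and 0.16 for flagellin. Their likeness rests on the gap between the ADP-heptose libraries and the other 6, and 381 genes reached an r above 0.95 with PMAIP1. For BIK they were ZNF706 (r = 0.993), C11orf68 (r = 0.989) and UBE2D3 (r = 0.989), with log2 fold changes of 0.34, 0.64 and 0.25 for ADP-heptose and 0.03, 0.07 and 0.01 for flagellin. With BIK, 202 genes reached an r above 0.95. BIK itself was highest in ADP-heptose replicate 3, and the weight of that library in its correlations was not tested. Depth was also highest in the ADP-heptose libraries, and its part in these correlations was not tested.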

How the data were processed

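Poly(A) libraries of HT-29 cells were sequenced on an Illumina NovaSeq in paired reads of 150 bases, 3 libraries for each of 3 groups. The authors used HISAT2 for alignment and featureCounts for counting, and the deposited values are raw counts per gene; versions, genome build, annotation, strandedness and the treatment of multi-mapping reads are not given in the sources used here. Reads of near-identical genes may therefore be split or dropped. The table had 62972 rows for 62710 identifiers (232 were listed more than once, with identical values, and were used once), of which 58274 matched GENCODE 29 (GRCh38), used for exon lengths and overlaps. Groups were taken from the sample labels, and the dose and time from the study's methods.

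Counts were tested with edgeR 4.0.16 (R 4.3.3): TMM scaling, filterByExpr, robust quasi-likelihood F test, 1 fit of all 9 libraries, Benjamini-Hochberg adjustment over 17412 genes, and a threshold of 0.05 for the adjusted p. SE is the absolute log2 fold change divided by the square root of F. DESeq2 1.42.0, the tool of the study, other scalings, no filter, 6 libraries, a 2-fold threshold and each library left out were tried as alternatives. The test was run on simulated data first. All 10 members are named, as are the genes of the pathway lists called in at least 1 comparison, BCL2, HRK and CASP8 (named after their values were seen), and the 3 genes most like each of the 2 members with the largest change. Members and lists were chosen with earlier results of these data known. Counting intervals cover counting error only. Figures were drawn with matplotlib 3.10.9. The p-values set each group difference against the spread between these 9 libraries of 1 cell line.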

Additional observations from a re-analysis of the deposited data

How the results depend on the processing

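The direction of all 9 tested members after ADP-heptose against non-stimulated cells held under 15 alternatives each, except that of BAX, which was −0.022 with library totals. PMAIP1, BIK, MCL1 and BMF stayed called in all 15. With a 2-fold threshold 2 members were higher and 0 lower with ADP-heptose than without stimulation, and 1 and 0 than with flagellin. The 2 lower members became 1 with only the 6 libraries compared, and 1 to 2 when single libraries were left out (1 without non-stimulated replicate 1). Against flagellin the 1 lower member became 2 with DESeq2, with library totals and with no filter, and 0 to 2 when single libraries were left out (2 without ADP-heptose replicate 2, 0 without flagellin replicate 1). BCL2L1 against non-stimulated cells passed the threshold with DESeq2 (0.276, adjusted p = 0.0487) and with no filter (0.27, adjusted p = 0.0186). Against flagellin, library totals turned BAX to −0.024 and BAK1 to −0.056, and with single libraries left out they ran from −0.01 to 0.158 and from −0.033 to 0.136. For flagellin against non-stimulated cells, sign changes came with single libraries left out, in ranges of −0.017 to 0.06 for BCL2L1, −0.039 to 0.062 for BAX, −0.01 to 0.183 for BIK and −0.032 to 0.02 for CYCS (0.003 without flagellin replicate 1, and −0.025 for BAX without non-stimulated replicate 3). The log2 ratios of flagellin minus non-stimulated cells ran likewise from −0.063 to 0.02 for MCL1 to PMAIP1 (0.009 without non-stimulated replicate 3), −0.14 to 0.02 for BCL2L1 to BIK, −0.046 to 0.034 for MCL1 to BAK1 and −0.016 to 0.053 for BCL2L1 to BAX. The cause of these changes was not tested. Summing BBC3, BAD and HRK with the 5 BH3-only members, a choice made after seeing the data, changed the PMAIP1 share from 32.9% to 19.5%, 34.4% to 19.2% and 52.9% to 23.4%. Of all genes, 2072 were called for ADP-heptose and 66 for flagellin against non-stimulated cells and 1421 between the stimuli. Without ADP-heptose replicate 3 these were 3288, 171 and 2721, with DESeq2 106 for flagellin, with no filter 124, and with only the 6 libraries compared 143. They fell to 1317 without non-stimulated replicate 3, 1354 without non-stimulated replicate 1, 38 for flagellin without flagellin replicate 1 (40 without non-stimulated replicate 1, 41 to 43 without non-stimulated replicate 2 or 3 or flagellin replicate 2), and 912 and 925 between the stimuli without flagellin replicates 2 and 3. Between the stimuli, library totals split the calls into 708 higher and 1064 lower, against 940 and 481.

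The correlation of deviations from the group mean ran from −0.379 to 0.236 for libraries of equal replicate number. For different numbers it ran from −0.383 to 0.433, and not every library correlated best with its own number. With 3 libraries per group and ADP-heptose replicate 3 standing apart, these values cannot show whether the libraries were paired. With the replicate number as a replicate block, 1064 genes were called higher and 523 lower with ADP-heptose than without stimulation, and of the members BID alone lost its call (0.302, adjusted p = 0.0643), as did BCL2L12 (0.4, adjusted p = 0.0543).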
